A study of Homo sapiens with 16 samples.

Results

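A dense stretch of 2 Mb on the long arm of chromosome 10, from 73 to 75 Mb on GRCh37 (hg19), was examined for binding of AIB1, a transcriptional coactivator encoded by NCOA3. It holds DDIT4, CDH23, PSAP, CHST3, SPOCK2, VSIR, MCU, P4HA1 and ASCC1, the 9 genes listed for it, among 21 protein-coding genes. The window was chosen from the measured regions themselves, because it stood out as a run of adjoining 1 Mb bins with at least 20 listed regions over 4 lists, so its number of regions is a description and supports nothing. It held 110 of the 1378 entries of the 4 deposited lists, which are 82 of 897 different regions, called clusters here. Each cluster was assigned to a listed gene whose body it overlapped by at least 1 bp, and otherwise to the listed gene with the nearest transcription start site (TSS). All 9 listed genes were found in the annotation and all 9 held a cluster in the body in at least 1 list.

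Chromatin bound by AIB1 was sequenced after immunoprecipitation (ChIP-seq) from human mammary epithelial cells. MCF10A is a non-tumorigenic breast epithelial line and MCFDCIS a line related to it that models ductal carcinoma in situ, and each was studied as parental cells and as cells labelled D4, a name the series gives to an isoform of AIB1. The labels do not say how D4 cells were made or whether they are a single clone. The labels give 3 ChIP samples and 1 input for every group, and all cells were grown with EGF, hydrocortisone (a glucocorticoid), cholera toxin, insulin and horse serum. The deposited data are 1 list of clusters per group with no value per replicate, so no replicate error can be given for any value here, and no test was made. Depth of sequencing is unknown, and an interval on a share covers only how many clusters there were. Line names are crossed in the labels: samples of MCFDCIS point to lists whose names say MCF10A, and samples of MCF10A to those that say MCFDCIS, while D4 status is the same on both sides. Lists are called MCF10A-named or MCFDCIS-named for that reason, and none is assigned to a cell line.

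AIB1 does not bind DNA in a sequence-specific way. It is brought to enhancers and promoters by transcription factors, among them nuclear receptors such as the glucocorticoid receptor and factors of the AP-1 and TEAD families, and it recruits acetyltransferases there. Its D4 isoform is a splice form that lacks the N-terminal part of the protein. DDIT4, also called REDD1, is induced by hypoxia, DNA damage, energy stress and glucocorticoids, and its product restrains the growth-promoting kinase complex mTORC1. Most other listed genes act in cell adhesion, the lysosome, the extracellular matrix or mitochondrial calcium uptake.

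The sequences that bear on the results are those with a match to the glucocorticoid response element (GRE, the letters GNACA and TGTNC with 3 bases between), together with the DDIT4 promoter and the cluster just before it. In the domain 4 of 82 clusters (4.88%) held a GRE match anywhere in their length, beside 6.13% of the 815 clusters elsewhere. Of these 4, 3 lay 17.7 kb to 30.0 kb upstream of the DDIT4 TSS. All 4 were in the MCFDCIS-named parental list, where clusters within 100 kb of that TSS covered 44.3 of the 70.6 kb in domain clusters. No excess of GRE matches near DDIT4 is claimed. Clusters of 10 bp are too short to hold a match. Each GRE match is printed with 24 bases on either side, on the plus strand from 5′ to 3′, with the match in capitals. The clusters printed for GRE matches were chosen after their values were seen.
chr10:74003624-74003684, intergenic, 30.0 kb upstream of DDIT4: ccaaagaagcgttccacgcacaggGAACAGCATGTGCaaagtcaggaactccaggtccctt
chr10:74008717-74008777, intergenic, 24.9 kb upstream of DDIT4: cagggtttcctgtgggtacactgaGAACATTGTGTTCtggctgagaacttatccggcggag
chr10:74015878-74015938, intergenic, 17.7 kb upstream of DDIT4: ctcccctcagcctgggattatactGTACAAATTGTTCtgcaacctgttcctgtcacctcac
chr10:74877799-74877859, intron 2 of NUDT13: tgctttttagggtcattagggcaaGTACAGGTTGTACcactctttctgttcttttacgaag

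The next pair, also from the plus strand, holds none of the 7 motifs searched, and is printed because the clusters nearest to DDIT4 in the parental lists lie there. The second sequence is only a part of a cluster of 6760 bp, which held AP-1, TEAD and RUNX matches elsewhere in its length.
chr10:74030506-74030805, intergenic, 2.87 kb upstream of DDIT4: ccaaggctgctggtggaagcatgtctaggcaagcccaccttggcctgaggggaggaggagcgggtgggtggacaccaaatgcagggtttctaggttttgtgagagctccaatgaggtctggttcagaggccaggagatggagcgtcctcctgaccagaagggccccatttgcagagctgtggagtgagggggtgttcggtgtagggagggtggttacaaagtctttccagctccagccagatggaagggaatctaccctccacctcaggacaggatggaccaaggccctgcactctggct
chr10:74033428-74033677, the 250 bases before the DDIT4 TSS: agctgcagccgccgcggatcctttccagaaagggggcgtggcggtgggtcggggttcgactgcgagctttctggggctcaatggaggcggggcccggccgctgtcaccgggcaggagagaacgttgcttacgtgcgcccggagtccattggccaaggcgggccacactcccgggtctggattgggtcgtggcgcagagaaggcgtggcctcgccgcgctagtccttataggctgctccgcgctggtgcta

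The domain held 45 of 490 MCF10A-named parental clusters (9.18%), 17 of 138 MCF10A-named D4 clusters (12.3%), 41 of 651 MCFDCIS-named parental clusters (6.30%) and 7 of 99 MCFDCIS-named D4 clusters (7.07%). Fewer clusters were listed in D4 than in parental cells under both names, in the domain as in the whole lists, and the share of a list that fell in the domain was no lower in D4. Elsewhere on chromosome 10 the lists held 4, 2, 7 and 1 clusters in the same order. A drop in counts at the borders follows from choosing a run of dense bins, so the counts around them are a description. In the bin from 73 to 74 Mb the lists held 17, 10, 18 and 3 clusters, and in the bin from 74 to 75 Mb they held 28, 7, 23 and 4. None of the 4 lists had a cluster in the 3 bins before or the 4 bins after. The nearest cluster before the window was at chr10:69853951-69853960 in both parental lists, 3146 kb from its edge, and the nearest one after it was 36837 kb away, in the MCFDCIS-named parental list. Inside, the first cluster began 78.6 kb after the left edge and the last ended 71.2 kb before the right edge.

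**Figure D1:**
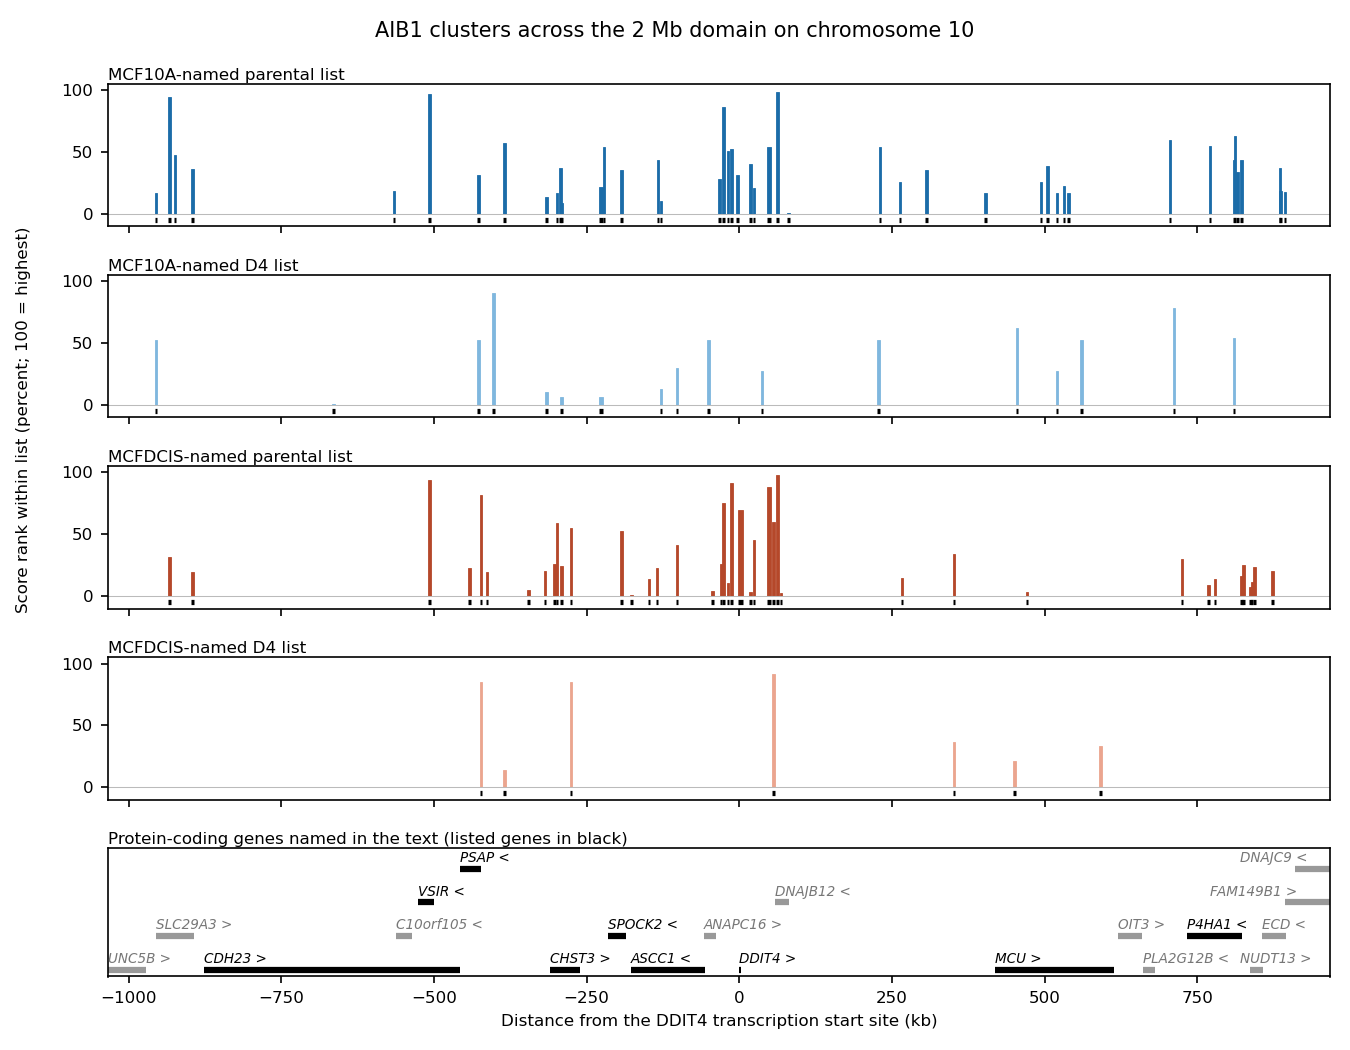
AIB1 clusters of the 4 lists along the domain, by distance from the DDIT4 TSS in kb (x axis). Bar height is the score rank within that list (100 is the highest, y axis), black ticks under the bars mark every cluster, narrow clusters are drawn wider than they are, and gene bodies are below with arrows for strand. The parental lists are densest around the DDIT4 TSS, where the 100 kb with the gene hold 9 and 10 clusters and the D4 lists 1 each. The whole lists hold 490 and 651 parental and 138 and 99 D4 clusters.

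The stretch of 100 kb that starts at 74.0 Mb and holds DDIT4 was the fullest of the domain in both parental lists. It held 9 MCF10A-named parental, 1 MCF10A-named D4, 10 MCFDCIS-named parental and 1 MCFDCIS-named D4 cluster. Within 100 kb of the DDIT4 TSS at position 74033678 the lists had 10, 3, 13 and 1 clusters, which covered 26.8, 8.03, 44.3 and 5.71 kb. The whole lists held 490, 138, 651 and 99 clusters in the same order, so lower D4 counts are not particular to DDIT4. The parental clusters formed a series of wide regions on both sides of the gene. Of all domain clusters, 9, 1, 10 and 1 were assigned to DDIT4. Some of these, among them the MCFDCIS-named D4 one, were nearer to the TSS of DNAJB12, which is not a listed gene.

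At DDIT4 itself the lists differed. The MCFDCIS-named parental list had a cluster of 6760 bp, chr10:74032151-74038910, that covered the promoter and all 3 exons and ranked 201 of 651 by score. In the MCF10A-named parental list the gene body held no cluster, and the nearest was chr10:74030501-74030810, 2.87 kb upstream, at rank 337 of 490. The nearest MCF10A-named D4 cluster was 35.9 kb downstream, chr10:74069601-74071760, at rank 101 of 138, and was in no parental list. The nearest MCFDCIS-named D4 cluster was 53.5 kb downstream, chr10:74087201-74092910, reaching into exon 9 of DNAJB12, at rank 9 of 99. That cluster was the highest of the domain in its list and was also in the MCFDCIS-named parental list, at rank 264. No D4 cluster touched the DDIT4 gene or lay within 25 kb of its TSS.

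The 3 clusters upstream of DDIT4 that hold a GRE match were in parental lists only, as were 58 of the 82 domain clusters. Of the whole MCF10A-named and MCFDCIS-named parental lists, only 13.7% and 9.98% were also in the D4 list of their name. The absence from D4 lists is therefore not shown to be particular to clusters with a GRE match. The cluster chr10:74006401-74009210, whose match is printed above, was in both parental lists, at rank 68 of 490 and rank 161 of 651. The cluster chr10:74014651-74016160 was also in both, at ranks 240 and 584. The third, chr10:74002851-74005110, was only in the MCFDCIS-named parental list, at rank 482. Nearer to the gene, chr10:74019151-74021910, 11.8 kb upstream, was in both parental lists and stood higher in the MCFDCIS-named list (rank 57) than in the MCF10A-named one (rank 235), and it held 3 matches to the AP-1 site (TGANTCA) over its length.

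Downstream, the widest cluster of the domain was chr10:74078301-74085260, with 6960 bp and 5 AP-1 matches, in both parental lists at ranks 225 and 80. The highest score of the domain in both parental lists was at chr10:74093401-74098660, 5260 bp over exons 6 to 9 of DNAJB12, an endoplasmic reticulum cochaperone gene, 59.7 kb from the DDIT4 TSS. Its authors' score was 68.0 in the MCF10A-named list (rank 7 of 490) and 120.1 in the MCFDCIS-named list (rank 15 of 651). Neither D4 list held it. Another cluster covered the DNAJB12 TSS, chr10:74112301-74115460, at rank 489 of the MCF10A-named parental list and in no other.

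**Figure D2:**
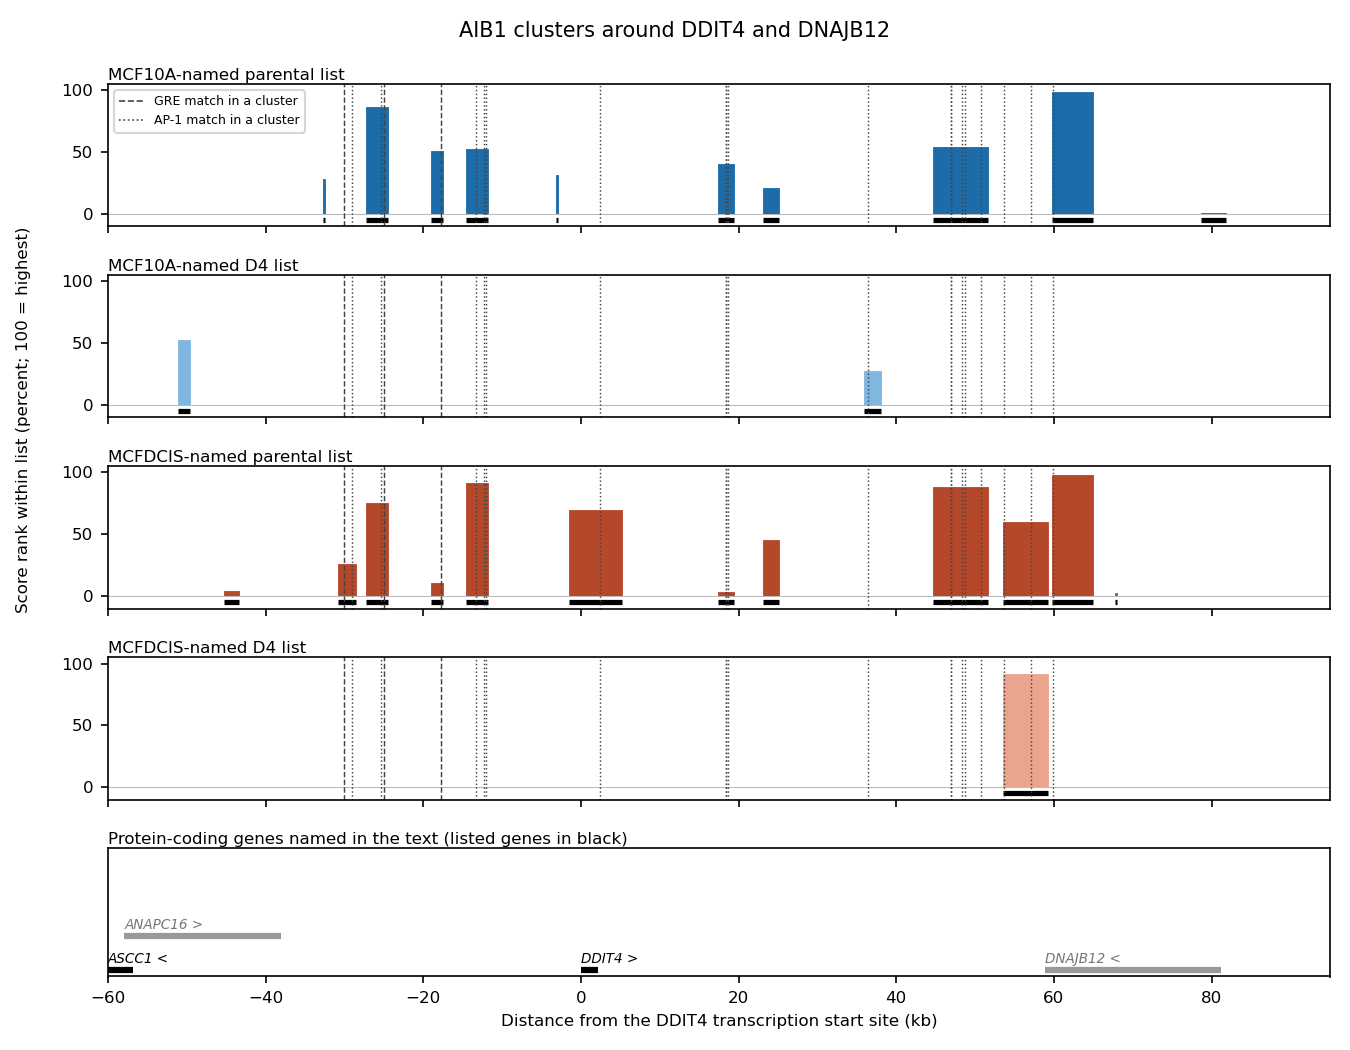
AIB1 clusters from 60 kb before to 95 kb after the DDIT4 TSS (x axis, kb), drawn to width, with the score rank within each list as height (y axis, 100 is the highest). Dashed lines mark GRE matches and dotted lines AP-1 matches that lie in a cluster of any list, drawn through all 4 panels; the 3 GRE matches lie 17.7, 24.9 and 30.0 kb before the TSS, in parental clusters.

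CDH23, a long cadherin of the tip links of inner ear hair cells, spans 419 kb and was sparsely covered, with 2, 1, 1 and 0 clusters in the body. VSIR, an inhibitory immune receptor also called VISTA, lies inside it on the other strand. Both shared the second highest domain cluster of each parental list, chr10:73524401-73528660, with 4260 bp in intron 38 of CDH23 and intron 1 of VSIR, 4.62 kb from the VSIR TSS. It ranked 17 of 490 in the MCF10A-named list and 42 of 651 in the MCFDCIS-named list, and was in neither D4 list. The MCF10A-named D4 list had instead 1 cluster of 10 bp in intron 9 of CDH23, chr10:73369201-73369210, the lowest of its 138 clusters. The cluster nearest to the CDH23 TSS in the parental lists was chr10:73138151-73138160, 18.5 kb upstream within SLC29A3, at ranks 315 and 526. SLC29A3, a nucleoside transporter of lysosomal membranes, lies beside it and held 3 MCF10A-named and 2 MCFDCIS-named parental clusters. The one in its intron 2, chr10:73099851-73100710, ranked 29 of 490 in the first list and 446 of 651 in the second. Just upstream of SLC29A3, chr10:73078551-73078710 was in both MCF10A-named lists, at ranks 407 and 66, and was the only D4 cluster of the domain that lay before CDH23.

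PSAP encodes prosaposin, the precursor of the saposins that help break down sphingolipids in lysosomes. Its promoter held a cluster in both MCFDCIS-named lists. The cluster chr10:73610201-73611560 covered the PSAP TSS and ranked 118 of 651 among parental and 16 of 99 among D4 clusters of the MCFDCIS name. The MCF10A-named lists lacked it and shared a cluster of 10 bp in PSAP intron 1, chr10:73606651-73606660, 4.35 kb from the TSS, at ranks 337 and 66. The highest domain cluster of the MCF10A-named D4 list lay 19.8 kb upstream of PSAP, chr10:73630801-73631610, with a score of 15.1 and rank 14 of 138. It was in no other list, and 3 AP-1 matches lie at its centre. A cluster of 110 bp farther upstream, chr10:73649301-73649410, was in the MCF10A-named parental list (rank 211) and the MCFDCIS-named D4 list (rank 86).

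CHST3, a sulfotransferase that adds sulfate to chondroitin chains of the matrix, held 3, 1, 4 and 1 clusters in its body. The cluster chr10:73757201-73759210 in its intron 1 ranked 291 of 651 among parental and 16 of 99 among D4 clusters of the MCFDCIS name. Also in intron 1, chr10:73742401-73742410 was the only cluster of the domain in 3 lists, at ranks 447 of 490, 130 of 138 and 492 of 651 (MCFDCIS-named parental), which is in the lower part of each. No cluster was in all 4 lists. SPOCK2, which encodes a secreted proteoglycan of the testican family, held the same cluster of 60 bp in intron 1 in both parental lists, chr10:73840551-73840610, at ranks 319 and 310. Between the 2 genes lay the widest D4 cluster of the domain, chr10:73803451-73810360, with 6910 bp and 6 AP-1 matches, which ranked 385 in the parental and 130 in the D4 list of the MCF10A name. The widest cluster in the CHST3 body, chr10:73733701-73737010 in intron 1 with 3310 bp, was in both parental lists, at ranks 407 and 266; it was named after its values were seen.

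ASCC1, a subunit of the activating signal cointegrator complex, held 2, 2, 4 and 0 clusters in its body. The cluster chr10:73929551-73933860 in ASCC1 intron 5, with 4310 bp, was in the MCF10A-named D4 list (rank 98) and in the MCFDCIS-named parental list (rank 385), but not in the MCF10A-named parental list. ANAPC16, a subunit of the anaphase-promoting complex, starts beside ASCC1 on the other strand. Over its exon 2, chr10:73982501-73984060 was only in the MCF10A-named D4 list, at rank 66, and over its exon 3, chr10:73988401-73990360 was only in the MCFDCIS-named parental list, at rank 624.

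MCU encodes the pore of the mitochondrial calcium uniporter. It held 5, 3, 1 and 2 clusters in its body. No MCU cluster lay at the promoter. The nearest was 14.6 kb upstream in the MCF10A-named parental list, chr10:74436001-74437260, and 53.2, 36.2 and 32.8 kb into intron 1 in the MCFDCIS-named parental, MCF10A-named D4 and MCFDCIS-named D4 lists, each of these 3 of 10 bp.

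P4HA1, the catalytic subunit of collagen prolyl 4-hydroxylase, held 5, 1, 3 and 0 clusters in its body. A cluster of 3360 bp covered its TSS in both parental lists, chr10:74854351-74857710, at ranks 279 and 546, and in neither D4 list. The D4 cluster nearest to the P4HA1 TSS was of 10 bp in intron 1, chr10:74844101-74844110, also in the parental list of the MCF10A name. The right end of the domain was parental only. NUDT13, a Nudix hydrolase gene, held 3 clusters in the MCFDCIS-named parental list, and the cell cycle gene ECD held 3 and 1 in the MCF10A-named and MCFDCIS-named parental lists. A cluster over the start sites of both ECD and FAM149B1, chr10:74925701-74928760, ranked 403 of 490 in the MCF10A-named parental list. UNC5B, C10orf105, OIT3, PLA2G12B and DNAJC9 held no cluster in the body in any list.

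Over the whole domain, 4, 1, 5 and 2 clusters lay within 1 kb of a protein-coding TSS, and 30, 11, 29 and 6 overlapped a gene body. The median gap between neighbouring clusters was 17.8 and 14.4 kb in the MCF10A-named and MCFDCIS-named parental lists, and 85.7 and 124.1 kb in the D4 lists. Clusters in gene bodies made up 66.7%, 64.7%, 70.7% and 85.7% of the lists' domain clusters, beside 77.8% of the domain's bases that lie in protein-coding gene bodies. Clusters of 3 lists were thus in genes at a lower share than the bases of the domain, with no test made.

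Most clusters of the domain were in a single list. Of the 82, 72 were in at least 1 parental list and 24 in at least 1 D4 list. Parental lists alone held 58, and D4 lists alone held 10. In all, 55 clusters were in 1 list, 26 in 2 and 1 in 3. These counts were made for the domain only, and the lists differ in length. They are therefore not shown to be particular to the domain. Where clusters of 2 lists overlapped they had identical ends, in 58 of 58 comparisons, each overlap being counted once from either list.

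A smaller share of parental clusters was common to both names in the domain than outside it. Of the 45 MCF10A-named parental clusters 14 were also in the MCFDCIS-named parental list, 31.1% (exact Clopper-Pearson 95% interval 18.2% to 46.6%), beside 65.8% (61.2% to 70.2%) of that list outside the domain and 62.7% of the whole list. In the other direction 14 of 41, 34.1% (20.1% to 50.6%), stood beside 48.0% (44.0% to 52.1%) outside and 47.2% of the whole list. The first pair of intervals did not overlap and the second did. No test of the difference was made, since neighbouring clusters are not independent. The 14 clusters in both parental lists were wide, with a median of 2385 bp against 60 bp for the other 31 MCF10A-named and 910 bp for the other 27 MCFDCIS-named ones. They also ranked higher. Their median rank was 53.0% from the top of the MCF10A-named list, against 68.8% for the others, and 51.3% against 79.6% in the MCFDCIS-named list.

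Over all clusters, the intervals of the shares between parental and D4 lists of 1 name held the values of the whole lists. In the MCF10A-named parental list were 8 of the 17 D4 clusters of that name, 47.1% (23.0% to 72.2%), beside 48.6% of the whole D4 list. Of the 7 MCFDCIS-named D4 clusters 4 were, 57.1% (18.4% to 90.1%), beside 65.7%. From the parental side, 8 of 45 (17.8%) were in the MCF10A-named D4 list, beside 13.7% of that whole parental list, and 4 of 41 (9.76%) in the MCFDCIS-named D4 list, beside 9.98%. These intervals are wide, and the shares moved with the score. Both lists were cut at their own median score for the next shares, so 0 shared does not mean absence from the uncut list. Among clusters at or above the median score of their list, the MCF10A name shared none here: 0 of 9 from the D4 side (interval up to 33.6%), beside 25% of such clusters in the whole list, and 0 of 13 from the parental side (up to 24.7%), beside 9.64%. At that limit the MCFDCIS-named parental list held 3 of 3 D4 clusters (29.2% to 100%), beside 50.9%, and the D4 list 3 of 11 parental clusters (6.02% to 61.0%), beside 8.59%. The 8 parental clusters of the MCF10A name that were also in its D4 list had a median width of 10 bp and a best parental rank of 279, and the 4 of the MCFDCIS name had a median width of 1685 bp and a best parental rank of 118. In their own D4 lists the median rank of the 8 was 80.4% from the top and that of the 4 was 16.2%.

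Across names few D4 clusters were shared, and most intervals held the value of the whole list. The MCFDCIS-named parental list held 2 of the 17 clusters that the MCF10A-named D4 list had here (11.8%, interval 1.46% to 36.4%, beside 39.9% of that whole D4 list), the only share with a D4 list across names whose interval left out that value. The MCF10A-named parental list held 1 of the 7 clusters of the MCFDCIS-named D4 list (14.3%, 0.361% to 57.9%, beside 39.4%). From the parental lists, 1 of 45 MCF10A-named clusters was in the MCFDCIS-named D4 list (2.22%, 0.0562% to 11.8%, beside 7.96%), and 2 of 41 MCFDCIS-named clusters in the MCF10A-named D4 list (4.88%, 0.596% to 16.5%, beside 8.45%). The 2 D4 lists had no domain cluster in common, 0 of 17 and 0 of 7, which allows shares of up to 19.5% and 41.0% by the exact interval, beside 6.52% and 9.09% of the whole lists.

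**Figure D3:**
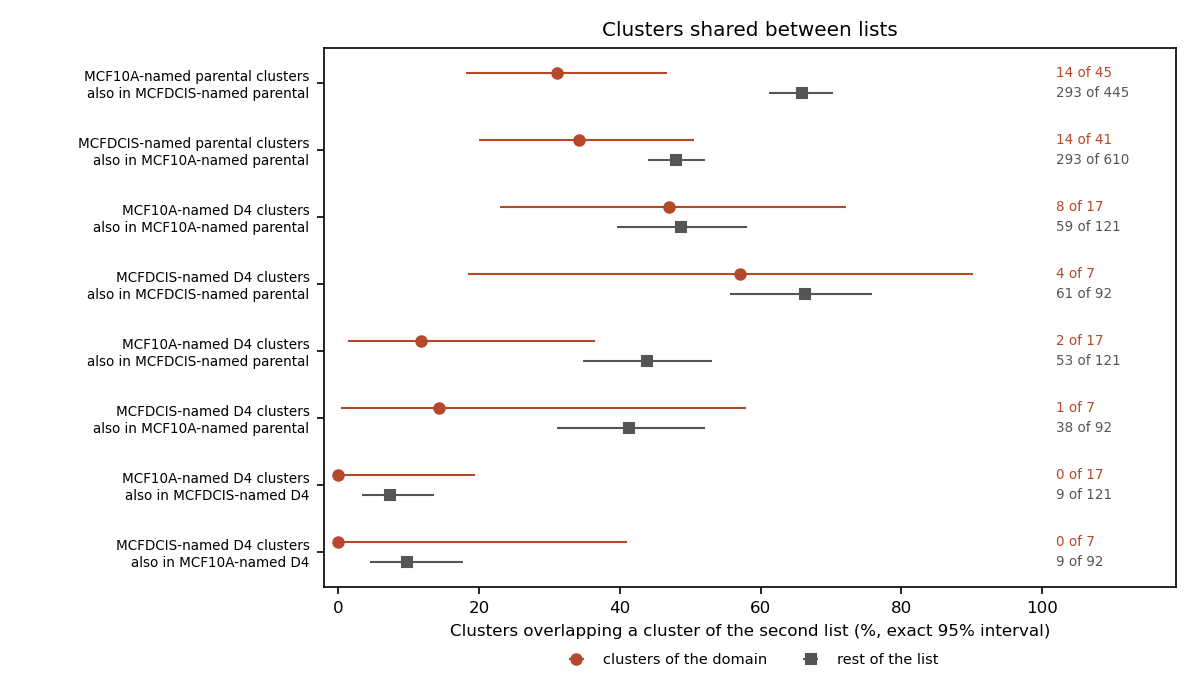
Share of each list's clusters that overlap a cluster of a second list (x axis, percent), for the domain (circles) and the rest of the list (squares), with exact 95% intervals that cover the number of clusters only. The shares between the 2 parental lists are 31.1% and 34.1% in the domain against 65.8% and 48.0% outside, and the intervals of shares between parental and D4 lists of 1 name hold the values of the rest.

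In the MCF10A-named D4 list 9 domain clusters were absent from the parental list of that name, and lay 2.29 to 99.2 kb (median 17.7 kb) from its nearest cluster. Only 1 of them, in ASCC1, was in the other parental list. By rule they fell to MCU (3 clusters), ASCC1 (2), CDH23, PSAP, DDIT4 and P4HA1 (1 each). The 3 such clusters of the MCFDCIS-named D4 list were the one upstream of PSAP and 2 of 10 bp in introns 1 and 4 of MCU, 20.4 to 120.0 kb from the nearest parental cluster. Of the 12 clusters in a D4 list and not in the parental list of its name, 5 were assigned to MCU, not all of them in its body. The same rule gave MCU 9 of 45 MCF10A-named and 3 of 41 MCFDCIS-named parental domain clusters. In the D4 lists it gave MCU 4 of 17 MCF10A-named and 3 of 7 MCFDCIS-named ones. No excess at MCU is claimed. chr10:74488101-74488110 in MCU intron 1 ranked 53 of 138 and chr10:74745351-74745360 downstream of P4HA1 ranked 31 of 138.

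By median, the clusters of the domain were wider than the rest of their lists in 3 of 4 lists. Median widths were 560 bp (MCF10A-named parental), 10 bp (MCF10A-named D4), 1260 bp (MCFDCIS-named parental) and 910 bp (MCFDCIS-named D4), beside 110, 60, 60 and 60 bp outside the domain. Clusters over 500 bp made up 51.1%, 35.3%, 65.9% and 57.1% of the domain's clusters, beside 18.7%, 27.3%, 16.2% and 22.8% outside. The domain therefore held a larger part of the listed base pairs than of the clusters in both parental lists and the MCFDCIS-named D4 list. It covered 59.5, 17.2, 70.6 and 10.1 kb, which is 17.1%, 12.2%, 17.1% and 14.3% of all base pairs in the lists. The MCF10A-named D4 list stood apart through its narrow clusters, with 9 of 17 at 10 bp.

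By score the domain's parental clusters had lower median ranks than the rest of their lists. The median rank of the domain's clusters was 64.9%, 47.8%, 76.3% and 64.6% from the top of their lists, beside 47.8%, 46.4%, 48.5% and 49.5% for the rest. In the upper part of the list, at or above its median score, were 13 of 45 (28.9%), 9 of 17 (52.9%), 11 of 41 (26.8%) and 3 of 7 (42.9%), beside 53.0%, 71.9%, 51.6% and 56.5% of the rest of each list. Ties at the median score raise these shares, most in the MCF10A-named D4 list. The best ranks were 7, 14, 15 and 9. Within the domain wide clusters ranked higher than narrow ones in both parental lists: clusters over 500 bp had a median rank of 60.2% and 68.5% from the top and those of 10 bp 74.7% and 85.4%. In the MCF10A-named D4 list the order was the reverse, 72.1% against 47.8%. Many clusters have tied scores, 15 of 17 in that list, so the order among them is coarse.

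**Figure D4:**
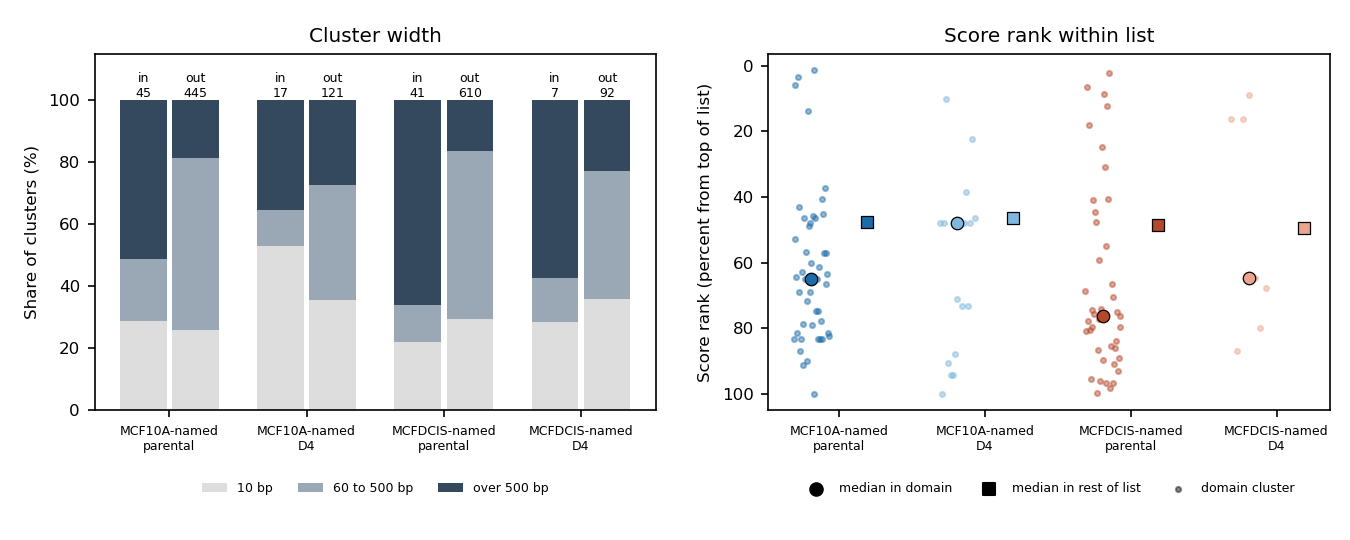
Left, the share of clusters (y axis, percent) that are 10 bp, 60 to 500 bp or over 500 bp wide, in the domain and outside it, with the number of clusters above each bar. Right, the rank of each domain cluster (y axis, percent from the top of its list) with the median in the domain and in the rest; the domain medians of both parental lists, 64.9% and 76.3%, lie below those outside, 47.8% and 48.5%.

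The central 500 bp of the 82 clusters were searched on both strands for 7 motifs: AP-1 (TGANTCA), GRE (above), TEAD (GGAATG), RUNX (AACCACA), ETS (CCGGAAGT), CRE (TGACGTCA) and SP/KLF (GGGGCGGGG). Clusters of at most 500 bp, 40 of 82 here and 659 of 815 elsewhere, are narrower than this window. A match counted for them can lie in flanking sequence, outside the cluster. No motif contains another, and 0 pairs of matches of different motifs overlapped within the clusters. The central windows of 18 of 82 clusters held an AP-1 match, 22.0% (13.6% to 32.5%). That stood beside 34.7% of the 815 clusters elsewhere and 13.2% of 4000 adjoining windows of 500 bp that tile the domain. TEAD matches were in 18.3%, beside 36.8% elsewhere and 23.5% of windows, and RUNX matches in 9.76%, beside 15.7% and 7.65%. SP/KLF matches were in 3.66%, beside 4.05% and 0.900%. GRE matches were in 0 of 82, for which the exact interval reaches 4.40%, beside 7.73% elsewhere and 0.600% of windows. ETS and CRE matches were in none, beside 1.10% and 1.35% elsewhere. In a set chosen after seeing the data, clusters of at most 500 bp, AP-1 was in 15.0% of 40 beside 38.4% of 659 elsewhere, and TEAD in 12.5% beside 38.4%. Among clusters over 500 bp the order for AP-1 was the reverse, 28.6% of 42 beside 19.2% of 156, and TEAD was in 23.8% beside 30.1%. Over whole clusters, which differ in length, AP-1 was in 31.7% beside 21.1% and TEAD in 32.9% beside 22.5%. There RUNX was in 14.6% beside 12.1% and GRE in 4.88% beside 6.13%. A match is a description of the sequence, and the lack of one says only that these letters are not in the window.

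Since the clusters are wide, matches were also counted over their whole length, 99.6 kb, beside 1900 kb of the domain outside clusters and 518.5 kb of clusters elsewhere. AP-1 matches came to 52.2 per 100 kb in the domain's clusters, 28.2 in the rest of the domain and 59.0 in clusters elsewhere. For GRE the values were 4.02, 1.05 and 9.64, from 4, 20 and 50 matches. For SP/KLF they were 5.02, 1.79 and 7.52. TEAD and RUNX matches were as dense inside the domain's clusters (53.2 and 15.1) as in the sequence around them (55.0 and 16.0), and denser in clusters elsewhere (81.0 and 24.3). Median GC content was 44.8% in the clusters' central windows and 45.6% in the tiling windows. The promoter of DDIT4 printed above held no match, where 4.78% of 18872 promoters of that length hold an AP-1 match and 23.5% an SP/KLF match. In central windows of 300 bp, the length printed above for the cluster before DDIT4, AP-1 was in 14.6% of the domain's clusters, 28.1% of those elsewhere and 8.10% of tiling windows.

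**Figure D5:**
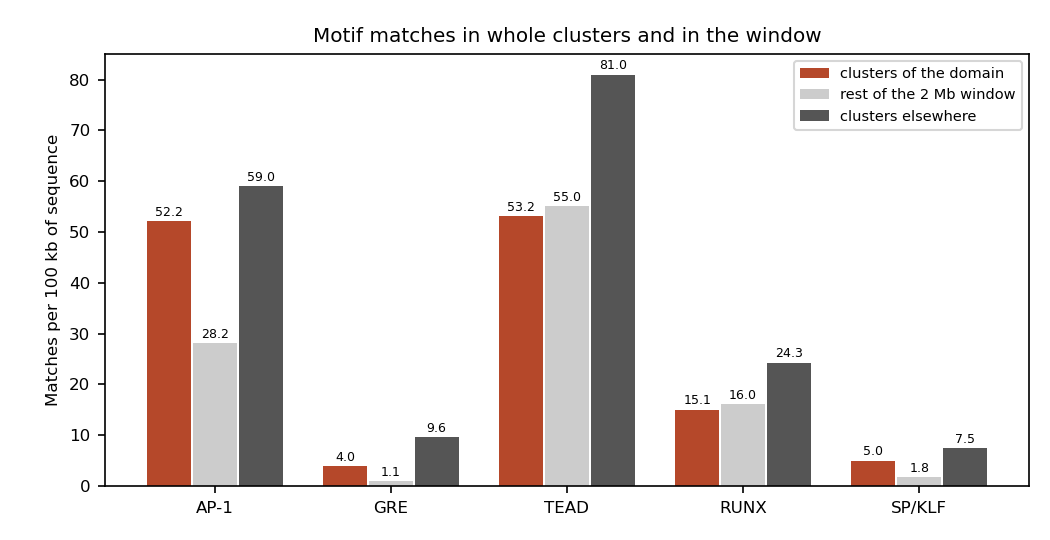
Motif matches per 100 kb of sequence (y axis) over the whole clusters of the domain, the rest of the domain and the clusters elsewhere, for 5 motifs (x axis). AP-1 matches are at 52.2 per 100 kb in the domain's clusters against 28.2 in the sequence around them, whereas TEAD and RUNX matches are at like densities in both.

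Genes that work with the listed ones were looked up in the rest of the genome by a cluster within 100 kb of the TSS. That held for 4.02%, 0.996%, 6.19% and 1.53% of 18872 protein-coding genes in the MCF10A-named parental, MCF10A-named D4, MCFDCIS-named parental and MCFDCIS-named D4 lists. Of 21 genes of the DDIT4 pathway and its stress regulators, 1, 0, 2 and 1 had such a cluster. They were AKT1S1, which encodes an mTORC1 subunit, with a cluster 0.802 kb from the TSS in 3 lists, chr19:50379651-50379810 (ranks 366, 360 and 57), and NR3C1, the glucocorticoid receptor gene, with one 1.10 kb from the TSS in the MCFDCIS-named parental list, chr5:142784351-142785060 (rank 463 of 651). Of 9 partners of CDH23 in hair cells none had one in any list. Of 18 matrix and lysosome genes 2, 0, 1 and 0 had one, P4HA2 and SPARC, at 67.5 and 71.4 kb. These counts rest on few genes.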

How the data were processed

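The authors deposited 4 BED lists of AIB1 clusters, 1 per group, each row with a position and a score in the fifth column whose definition is not stated. Per the series' design text, lysate input served to normalize the ChIP signal, and the build was hg19 (GRCh37) per the submitters' processing notes. The aligner, caller and score threshold were not given in the sources used here. Scores were only ranked within a list (1 is the highest, ties take the best rank). Coordinates are 1-based on GRCh37, and genes are from GENCODE release 44 lifted to that build. Overlap meant at least 1 bp. No test was made, since there are no replicate values and the window was chosen for its clusters. The members and gene lists were chosen with earlier results of these data known. Named clusters were, per list, the 3 highest, the 3 widest, those in 3 or more lists, those in D4 and not in the parental list of that name, and the nearest to each listed TSS; others at start sites of unlisted genes, within SLC29A3 or with printed motif matches were chosen after their values were seen. Of 64 pathway genes 6 were left out, being on chromosomes without clusters or not in the annotation, and some results on genes and sequences are not reported here. Alternatives changed the score limit, the cluster width (chosen after seeing the data), the overlap, the window, the motif length and the list of the other line name. The scripts were tested on simulated data and used Python 3.11.15 with pysam 0.24.0, pandas 2.3.3, numpy 2.4.6, matplotlib 3.10.9 and SciPy 1.17.1.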

Additional observations from a re-analysis of the deposited data

How the results depend on the processing

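No paired analysis was possible because the lists carry no replicate values, and for the same reason no replicate could be left out. Of 108 alternative values 83 stayed within their limits and 25 moved, and widening the window by 500 kb on either side changed none. Some of these could not have moved. The nearest cluster outside the window lies 3146 kb away, and overlapping clusters have identical ends, which fixes the result of a stricter overlap. The tally is therefore no measure of how robust the results are. With clusters at or above the median score of their list, the domain held 13 (MCF10A-named parental), 9 (MCF10A-named D4), 11 (MCFDCIS-named parental) and 3 (MCFDCIS-named D4) clusters. Median widths in the parental lists were 1510 and 3310 bp, and 5 listed genes had a cluster in the MCF10A-named D4 list. Ranks were retaken within these shortened lists, and the parental medians there were 84.7% and 49.4% from the top. Such ranks cannot be set beside those in the whole lists. With both lists cut so, 0% of MCF10A-named D4 and 0% of MCF10A-named parental clusters were in the other cut list of that name. For the MCFDCIS name the shares were 100% of D4 and 27.3% of parental clusters. Without clusters of 10 bp the MCF10A-named D4 list had 8, with a median width of 1335 bp. With the list of the other line name the shares were 11.8% and 2.22% for the MCF10A-named D4 and parental lists and 14.3% for the MCFDCIS-named D4 list. In the central 200 bp AP-1 fell in 11.0%, TEAD in 4.88%, RUNX in 3.66% and SP/KLF in 0% of clusters. Over whole clusters GRE was in 4.88%, beside 6.13% of clusters elsewhere, and TEAD in 32.9%, beside 22.5%. Within 25 kb, 1 pathway gene had a MCF10A-named parental cluster. The cause of these changes was not tested, except that fewer clusters or other lengths of sequence enter by construction. Depth is unknown and sets a limit on every count of D4 clusters.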
